A study of Mus musculus with 12 samples.

Results

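The developmental transcription factors described here are 101 genes among the 55291 genes counted in bone marrow LK cells of 4 mouse genotypes. They were chosen by symbol alone, as all genes named *Hoxc* or *Hoxd* with a number, *Pax1* to *Pax9* without *Pax5*, *Sox*, *Lhx* and *Tbx* genes with a number, the family of *Six5*, *Nkx* genes, *Dlx1* to *Dlx6*, *Irx1* to *Irx6*, and *Gata4*, *Gata5* and *Gata6*. The rule uses names and no values. LK cells are marrow cells without mature lineage markers that carry cKit, the receptor of stem cell factor. The libraries were made from individual mice, 3 of each genotype, at 12 months of age, and the *Asxl1*Y588XTg mice were described as preleukemic. WT mice are labelled wild type on a C57BL/6 strain, Kdm6bΔ/+ mice lack 1 allele of *Kdm6b*, Asxl1Y588XTg mice carry a transgene for a truncated ASXL1 protein, and Asxl1Y588XTg Kdm6bΔ/+ mice carry both changes. The deletion was made by Cre recombinase from *Mx1Cre*, which is switched on by pI:pC, an inducer of interferon, and acts in many cell types beside blood cells. The sources do not say whether the WT and Asxl1Y588XTg mice of these libraries carried *Mx1Cre* or received pI:pC, so this exposure cannot be told apart from the deletion.

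These families build the body plan of the embryo. *Hox* genes set position along the body axis, *Pax*, *Sox* and *Six5* family genes specify eye, kidney, nerve and other organ precursors, *Tbx* and *Nkx* genes pattern heart, limb and gut, and *Lhx*, *Dlx* and *Irx* genes act in brain, face and limb. In tissues that do not use them their promoters are textbook targets of the Polycomb complexes. PRC2 places methyl groups on lysine 27 of histone H3, PRC1 compacts such chromatin, the demethylase KDM6B removes the mark, and ASXL1 is a chromatin protein that binds PRC2 and the deubiquitinase BAP1. The comparison of the genotypes therefore asks whether genes kept silent in blood gain transcripts when ASXL1 is truncated, and whether they lose them again when 1 allele of *Kdm6b* is removed.

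Most members were silent or nearly so in LK cells, but not all. No read was counted on 25 of the 101 members (24.8%) in any library, 63 members (62.4%) had counts too low for testing, and 13 (12.9%) passed edgeR's filter on low counts. Among all genes the shares were 40.9%, 30.5% and 28.6%. In a library of these depths a count of 0 still allows up to 3 counts, or 0.128 to 0.208 CPM (read counts scaled to a common library total), which covers counting error only. The name of a silenced group fits the *Hoxc* and *Hoxd* clusters, where 0 of 9 and 0 of 9 genes passed the filter, but it does not hold for 7 of the 19 *Sox* genes. *Sox4*, a factor of progenitor cells that is also expressed in blood, took 51.8% of the 31278 counts on all members, and the 13 tested members together took 97.2%. The 88 members below the filter shared 869 counts over 12 libraries.

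The libraries held 14451522 to 23482563 counted reads each. WT replicate 1 had 18630 genes with a count and Kdm6bΔ/+ replicate 1 had 20400, against 22727 to 25380 in the other libraries. Among 3298 genes with a mean of 3 to 8 counts, 47.5% and 28.5% were at 0 in those libraries, against 1.70% to 10.2% elsewhere, although WT replicate 1 was the second deepest. Results are therefore also given without them. Y-linked transcripts were found in 0 of 3 WT, 2 of 3 Kdm6bΔ/+, 1 of 3 Asxl1Y588XTg and 3 of 3 Asxl1Y588XTg Kdm6bΔ/+ libraries, and the sex of the mice was not given. The 9 markers listed for LK cells, among them *Kit*, *Cd34* and *Mpo*, summed to between 10500 and 14500 CPM in every library. *Mpo* took 85.9% of these counts, and the others summed to between 1570 and 1840 CPM. Of the 9, 1 was called higher in Asxl1Y588XTg than in WT. In Asxl1Y588XTg Kdm6bΔ/+ against Asxl1Y588XTg, 1 was called lower. *Kdm6b* was at 121 ± 14.3 CPM (SD, n = 3) in WT, 85.2 ± 8 in Kdm6bΔ/+, 128 ± 3.39 in Asxl1Y588XTg and 103 ± 8.02 in Asxl1Y588XTg Kdm6bΔ/+, so that the deletion lay below its own background, WT or Asxl1Y588XTg, in all libraries. Neither decrease was called, with log2 fold changes of −0.51 (adjusted p = 0.279) and −0.30 (adjusted p = 0.0717) in edgeR's QL test, Benjamini-Hochberg adjusted. *Asxl1* was at 159 ± 15.3 in WT and 170 ± 4.68 in Asxl1Y588XTg, a difference within the spread between mice.

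More members were detected with the transgene, and so were more of all genes, by a smaller share. At least 1 count was found on 16, 38 and 41 members in the WT libraries and on 25, 43 and 36 in Kdm6bΔ/+. The Asxl1Y588XTg libraries had 47, 45 and 47, and the Asxl1Y588XTg Kdm6bΔ/+ libraries 47, 37 and 49. The 3 Asxl1Y588XTg libraries lay above the 3 WT libraries, by 14.7 members on average, and without WT replicate 1 by 6.83. Over all genes the same order held, with 18630, 22727 and 23759 genes detected in WT and 24053, 24229 and 24268 in Asxl1Y588XTg. As shares, 15.8% to 40.6% of members were detected in WT and 44.6% to 46.5% in Asxl1Y588XTg, beside 33.7% to 43% and 43.5% to 43.9% of all genes. Detected in all 3 libraries were 11.9% of members in WT and 29.7% in Asxl1Y588XTg, beside 30.5% and 36.9% of all genes. This WT share was capped by WT replicate 1, since no more than its 16 members could be in all 3. The other WT libraries held 37.6% and 40.6% of members. At a common depth of 14451522 reads, the expected number of members was 15.7, 37.0 and 39.3 in WT and 45.3, 42.6 and 44.9 in Asxl1Y588XTg. The difference shrank as the demand on counts rose, to 6.67 members at 3 or more counts and 1.33 members at 10 or more. No p-value is given for these numbers, since the members were chosen with results of these data known.

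**Figure D1:**
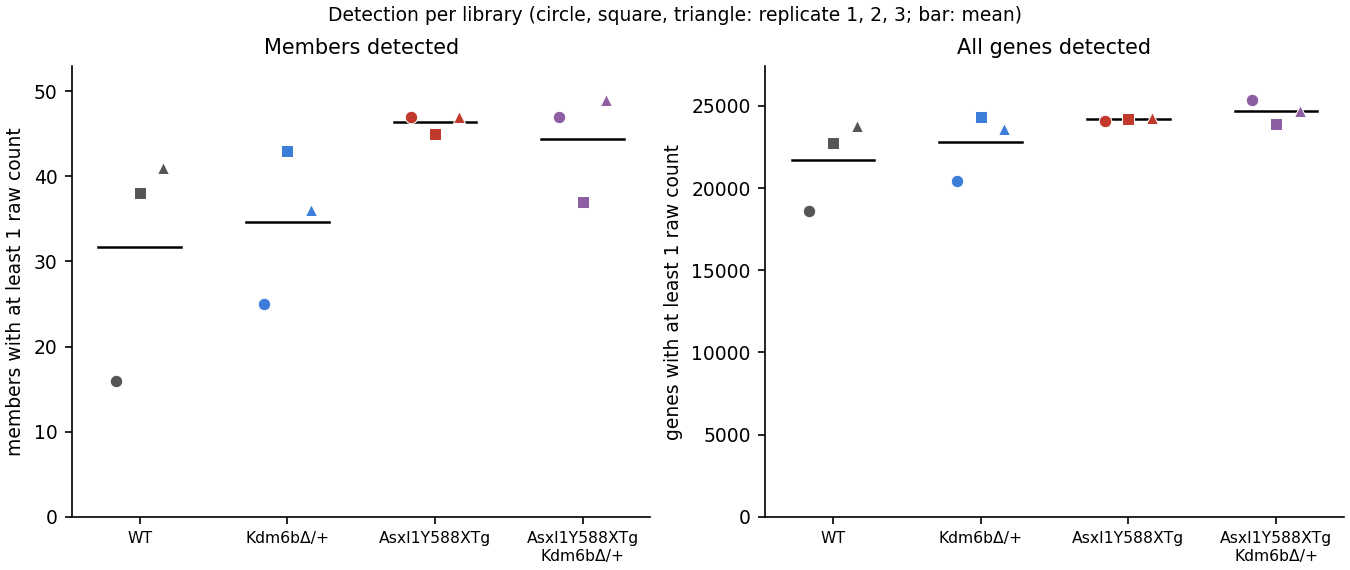
Members (left, of 101) and all genes (right, of 55291) with at least 1 raw count in each library, by genotype, where symbols mark replicates and bars mark means. WT replicate 1 and Kdm6bΔ/+ replicate 1 are lowest in both panels, and the Asxl1Y588XTg libraries hold 45 to 47 members against 16 to 41 in WT.

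Rare genes outside the families appeared with the transgene about as often as members did. Of the 63 members with a few counts, 12 (19.0%) had reads in an Asxl1Y588XTg library and in no WT library, against 21.4% of 16816 other genes below the filter. The reverse, reads in WT and not in Asxl1Y588XTg, was seen for 3 members (4.76%) and 11% of the other genes. WT replicate 1 had reads on only 5 of the 88 members below the filter, so both shares rest mainly on the other WT libraries. Summed over the 88 members below the filter, the raw counts were 32, 71 and 66 in WT and 130, 89 and 80 in Asxl1Y588XTg. In CPM this was 1.66, 4.41 and 4.01 against 7.43, 5.09 and 4.6, a ratio of means of 1.70, and 1.36 without WT replicate 1. The groups did not overlap. As a share of all counts on genes below the filter they did overlap, with 0.126% to 0.319% in WT and 0.312% to 0.437% in Asxl1Y588XTg. In Kdm6bΔ/+ these members had 42, 71 and 53 counts, and in Asxl1Y588XTg Kdm6bΔ/+ 98, 46 and 91. The double mutant overlapped with both WT and Asxl1Y588XTg, and Kdm6bΔ/+ overlapped with WT and lay below Asxl1Y588XTg.

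The families differed more from each other than between genotypes. Among the families with a tested member the *Nkx* sum had the highest ratio of Asxl1Y588XTg to WT, 4.49, with a mean of 1.43 ± 1.2 CPM (SD, n = 3) in WT, 6.42 ± 1.4 in Asxl1Y588XTg and 1.92 ± 0.726 in Asxl1Y588XTg Kdm6bΔ/+. This difference was that of 1 gene, *Nkx2-3*: without it the *Nkx* sum was 0.487 ± 0.387 in WT and 0.478 ± 0.288 in Asxl1Y588XTg. The *Sox* sum was 131 ± 5.93 in WT and 138 ± 0.776 in Asxl1Y588XTg, the *Six5* family sum 5.01 ± 1.72 and 6.57 ± 0.441, and the *Pax* sum 4.24 ± 1.27 and 4.14 ± 0.871. For *Tbx* it was 4.06 ± 1 and 4.26 ± 2.11, and for *Lhx* 0.825 ± 0.188 and 0.859 ± 0.604. The *Six5* family, *Pax*, *Tbx* and *Lhx* means differed between WT and Asxl1Y588XTg by less than the larger SD of the pair. Without *Six5* the rest of its family had a ratio of 2.54, and without *Lhx1* the *Lhx* genes had 1.95, on few reads. The *Tbx* sum was lower with the deletion, at 2.16 ± 0.373 in Kdm6bΔ/+ and 2.55 ± 0.331 in Asxl1Y588XTg Kdm6bΔ/+, below all WT libraries. This separation depended on *Tbx21*. Without it the sums overlapped, at 1.52 to 2.61 in WT, 1.07 to 2.12 in Kdm6bΔ/+ and 1.48 to 2.4 in Asxl1Y588XTg Kdm6bΔ/+. The *Dlx*, *Irx* and *Gata* families held only 79, 33 and 11 counts over all libraries.

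**Figure D2:**
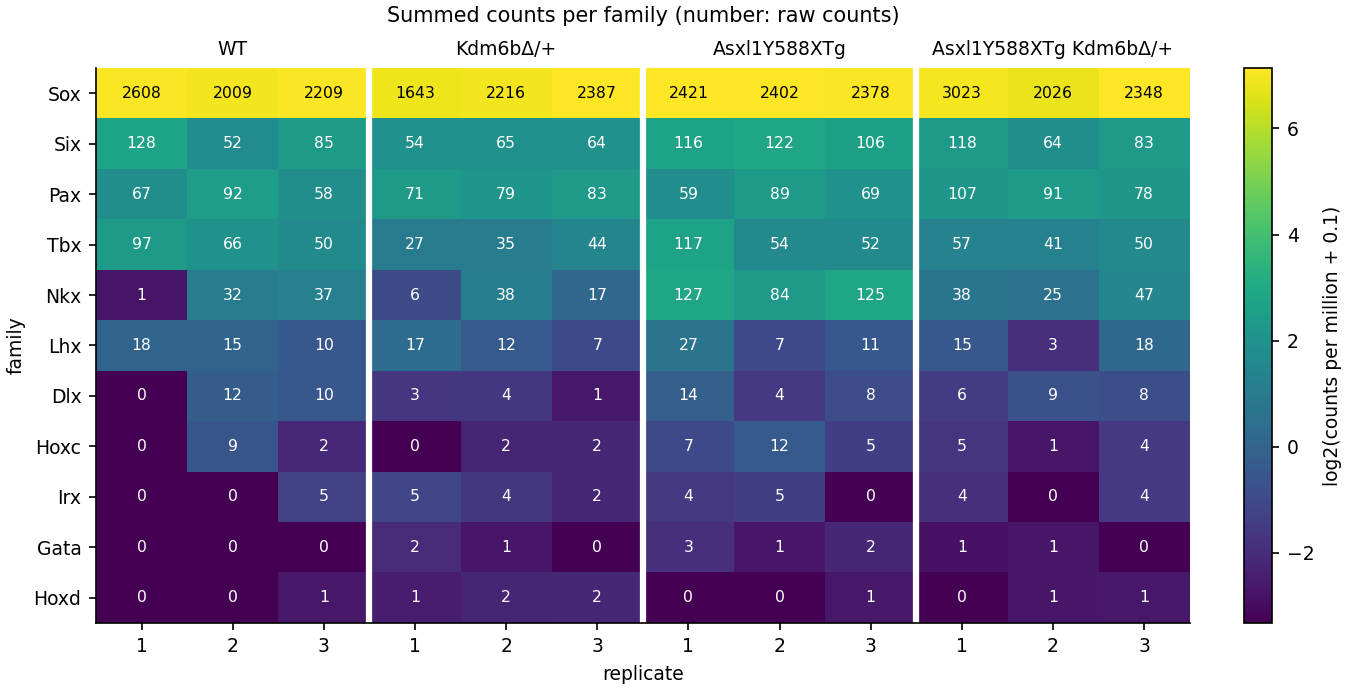
Summed counts of the 11 families in each library, with raw counts as numbers and log2(CPM + 0.1) as colour. The *Nkx* sums are higher in Asxl1Y588XTg, with 127, 84 and 125 counts against 1, 32 and 37 in WT.

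The *Hox* clusters showed the silent end of the range. *Hoxd* genes had 9 counts in 12 libraries, with 5 of the 9 genes at 0 throughout (*Hoxd1*, *Hoxd3*, *Hoxd10*, *Hoxd11* and *Hoxd12*) and *Hoxd8* highest with 5 counts. *Hoxc* genes had 49 counts, of which *Hoxc6* took 40.8%, and *Hoxc11*, *Hoxc12* and *Hoxc13* had none. The *Hoxc* sum was 0, 9 and 2 in WT, 0, 2 and 2 in Kdm6bΔ/+, 7, 12 and 5 in Asxl1Y588XTg and 5, 1 and 4 in Asxl1Y588XTg Kdm6bΔ/+. The WT and Asxl1Y588XTg libraries overlapped. *Hoxc6* overlaps *Hoxc5* on the same strand, so its counts are uncertain. *Hoxc8*, *Hoxc9* and *Hoxc10* overlap *Hoxc5* in the same way. *Hoxd3*, *Hoxd10* and *Hoxd11* also overlap other genes on their own strand, so their counts of 0 are uncertain too. The *Hoxa* and *Hoxb* clusters, which blood progenitors use, were far above *Hoxc* and *Hoxd*, with 308 to 426 and 118 to 138 counts in the WT libraries.

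The *Hoxb* cluster is no member and serves as a comparison. Its sum was 125, 118 and 138 in WT, 261, 282 and 283 in Asxl1Y588XTg, and 154, 119 and 178 in Asxl1Y588XTg Kdm6bΔ/+. Of 11 *Hoxa* and *Hoxb* genes tested, 2 were called higher in Asxl1Y588XTg than in WT (*Hoxb5* and *Hoxb8*) and 2 lower in Asxl1Y588XTg Kdm6bΔ/+ than in Asxl1Y588XTg (*Hoxb6* and *Hoxb8*). No *Hoxc* or *Hoxd* gene passed the filter for this test, and without the filter none was called in any comparison. *Hoxc6* then had log2 fold changes of 1.82 in Asxl1Y588XTg against WT (adjusted p = 0.749) and −2.54 in the double mutant against Asxl1Y588XTg (adjusted p = 0.313), both from edgeR.

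**Figure D3:**
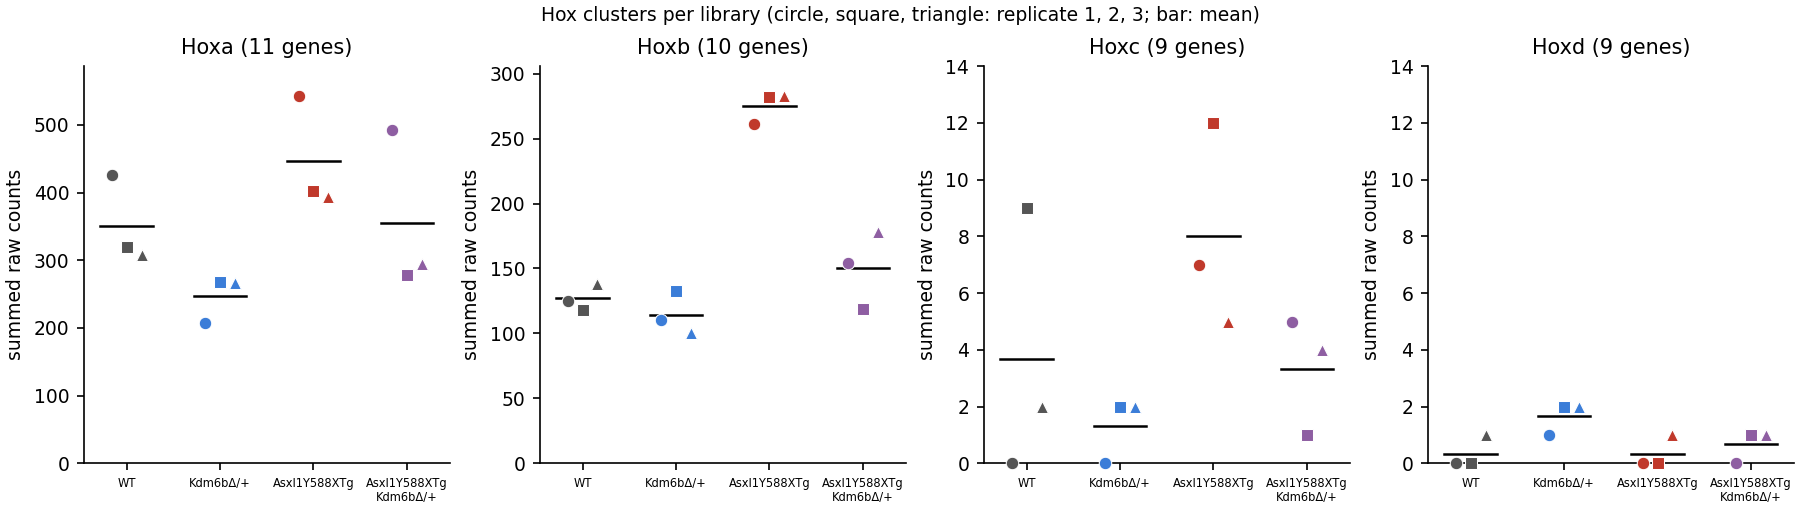
Summed raw counts of the 4 *Hox* clusters per library, where symbols mark replicates and bars mark means; *Hoxa* and *Hoxb* have vertical axes of their own, and *Hoxc* and *Hoxd* share one that ends at 14. *Hoxb* is at 261 to 283 in Asxl1Y588XTg against 118 to 138 in WT, while *Hoxd* has at most 2 counts in any library.

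Among the 13 tested members, none was called between Asxl1Y588XTg and WT, and 1 was called between Asxl1Y588XTg Kdm6bΔ/+ and Asxl1Y588XTg. A gene was called when its adjusted p was under 0.05 and its fold change above 1.5, in the quasi-likelihood (QL) test of edgeR, with p-values adjusted by Benjamini-Hochberg across the 15825 genes that were tested. In Asxl1Y588XTg against WT, 0 members rose and 0 fell, where 1.58% of all genes tested were called higher and 0.0316% lower. At an unadjusted p under 0.05, 2 members were higher and 0 lower, beside 9.35% of all genes in either direction, and DESeq2 also called 0, as it did among the members in each of the comparisons below with a count of 0. In Asxl1Y588XTg Kdm6bΔ/+ against Asxl1Y588XTg, 0 members rose and 1 fell, where 0.145% of all genes were called higher and 1.59% lower. The median log2 fold change of the tested members was 0.15 in the first comparison, beside −0.01 over all genes, and −0.14 in the second, beside −0.004. Without the filter it was 0.46 over 65 members, beside 0.02 over all genes, and −0.43 over 68 members, beside −0.005. Most of these members lay below the filter, while all genes include many with high counts, so levels were unlike. WT replicate 1, used for the 0.46, had reads on only 5 of the 88 members below the filter. These 2 comparisons share the Asxl1Y588XTg libraries.

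*Nkx2-3*, a homeobox factor needed in the embryo for spleen and gut vessels, was the called member. It lies on chromosome 19 of mm10 from 43612325 to 43615892 on the plus strand, and no other annotated gene overlaps it. Its raw counts were 0, 22 and 24 in WT, 4, 23 and 11 in Kdm6bΔ/+, 124, 71 and 116 in Asxl1Y588XTg, and 22, 22 and 37 in Asxl1Y588XTg Kdm6bΔ/+. Every Asxl1Y588XTg library was above every library of the other genotypes, which overlapped among themselves. On the scale of CPM this was 0.941 ± 0.816 (SD, n = 3), 0.743 ± 0.512, 5.94 ± 1.64 and 1.45 ± 0.646. Between Asxl1Y588XTg Kdm6bΔ/+ and Asxl1Y588XTg its log2 fold change was −2.04 (95% interval −2.81 to −1.26, adjusted p = 0.0209 from edgeR's QL test, Benjamini-Hochberg adjusted).

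Against WT the difference of *Nkx2-3* in Asxl1Y588XTg was as large, but its call rested on the WT libraries used. The log2 fold change was 2.67 (95% interval 0.66 to 4.69, adjusted p = 0.299 from edgeR's QL test, Benjamini-Hochberg adjusted). Without WT replicate 1, which had no read on the gene, it was 2.06 and was called (adjusted p = 0.0245 from the same edgeR test), in a fit where 1.55% of all genes were called higher. The fall in Asxl1Y588XTg Kdm6bΔ/+ lost its call without Asxl1Y588XTg replicate 3 (adjusted p = 0.0552), without Asxl1Y588XTg Kdm6bΔ/+ replicate 1 (0.0736) or without its replicate 2 (0.12), each from edgeR's QL test, with log2 fold changes of −1.94, −1.77 and −1.96. In a fit of all 4 genotypes it was −2.05 and not called (adjusted p = 0.274 from edgeR), and with Y-linked transcripts also added to that fit it was −1.32 (adjusted p = 0.846 from edgeR). With a replicate block it was −2.06 and not called either (adjusted p = 0.0554 from edgeR). The fit of all 4 genotypes without WT replicate 1 and Kdm6bΔ/+ replicate 1 did call it, at −2.05 (adjusted p = 0.0144 from edgeR). In Kdm6bΔ/+ against WT the log2 fold change of *Nkx2-3* was −0.31 (95% interval −2.52 to 1.91). The interaction, which subtracts the deletion's effect in WT from its effect in transgenic mice, was −1.77 for *Nkx2-3* (standard error 1.11, adjusted p = 0.796 from edgeR's QL test), so a difference between the backgrounds was not shown.

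Summed markers of hematopoietic stem cells (HSCs), which are among LK cells, and of endothelial cells moved with *Nkx2-3*. By flow cytometry the study reported larger shares of long-term HSCs in Asxl1Y588XTg marrow, and smaller ones with the deletion added. It describes those transgenic mice as analysed when moribund. The 8 markers of HSCs (*Procr*, *Mecom*, *Hlf*, *Slamf1*, *Mllt3*, *Meis1*, *Fgd5* and *Hoxb5*) summed to 88.1 to 114 CPM in WT, 80.3 to 91.6 in Kdm6bΔ/+, 219 to 260 in Asxl1Y588XTg and 88.0 to 131 in Asxl1Y588XTg Kdm6bΔ/+, with 7 of 8 called higher in Asxl1Y588XTg than in WT and 5 of 8 called lower in Asxl1Y588XTg Kdm6bΔ/+ than in Asxl1Y588XTg. *Hoxb5* was at 0 in WT replicate 1 and Kdm6bΔ/+ replicate 1. The 12 endothelial markers summed to 114 to 137, 113 to 115, 237 to 451 and 150 to 203 in the same order, with 2 called higher and 2 called lower. *Vwf* took 50.2% of these counts, and the other 11 summed to 77.6 to 86.4, 80.2 to 88.9, 113 to 129 and 86.6 to 98.1 CPM. Single markers did not all follow the sum: *Plvap* had 131, 36 and 67 raw counts in WT and 81, 48 and 76 in Asxl1Y588XTg. *Stab2* had 13, 19 and 40 against 54, 18 and 22, and *Egfl7* 296, 184 and 220 against 200, 240 and 230. Over the 12 endothelial markers the median log2 fold change in Asxl1Y588XTg against WT was 1.61. *Flt4* was at 0 in WT replicate 1, and *Cdh5*, the cadherin that defines endothelial cells, had 7, 4 and 5 raw counts in WT, 34, 10 and 8 in Asxl1Y588XTg and 33, 23 and 28 in Asxl1Y588XTg Kdm6bΔ/+, and so was not lower in the double mutant. Stromal, bone and cartilage, neural, T and NK, B and erythroid markers had 0 calls in either comparison. The part of these cells in the result was not tested. In bulk libraries a larger share of cells with *Nkx2-3* and more of its RNA per cell cannot be told apart.

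*Sox18* and *Tbx1* had the same order of genotypes at lower counts. *Sox18*, a factor of blood and lymph vessel development on chromosome 2 (181669836 to 181671640), had 0, 2 and 8 raw counts in WT, 2, 2 and 1 in Kdm6bΔ/+, 47, 10 and 14 in Asxl1Y588XTg and 14, 13 and 13 in Asxl1Y588XTg Kdm6bΔ/+. Its log2 fold change between Asxl1Y588XTg and WT was 2.73 (95% interval 0.42 to 5.04, adjusted p = 0.392 from edgeR's QL test). In Asxl1Y588XTg Kdm6bΔ/+ it was also above all WT libraries, and against Asxl1Y588XTg its log2 fold change of −0.95 became 0.02 without Asxl1Y588XTg replicate 1. *Nkx2-3* and *Sox18* were the 2 of 13 tested members with all Asxl1Y588XTg libraries above all WT libraries in CPM, a pattern of 10.5% of all genes tested. *Nkx2-3* and *Six5* were the 2 of 13 with all Asxl1Y588XTg Kdm6bΔ/+ libraries below all Asxl1Y588XTg libraries, a pattern of 14.1% of all genes.

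*Tbx1*, a factor of the pharyngeal arches and the heart outflow tract, lay below the filter. It lies on chromosome 16 (18580979 to 18590671, minus strand), and no other gene overlaps it. It had 0 counts in all 3 WT and all 3 Kdm6bΔ/+ libraries, 31, 25 and 2 in Asxl1Y588XTg, and 3, 1 and 3 in Asxl1Y588XTg Kdm6bΔ/+. The Asxl1Y588XTg mean was 6.32 times the WT limit of 3 counts per library, or 0.175 CPM. Asxl1Y588XTg replicate 3, at 0.115 CPM, lay below that limit. The 2 reads of Asxl1Y588XTg replicate 3 lay within the range of the double mutant, so the difference was that of replicates 1 and 2. *Tbx15*, a limb and skeleton factor, had 0, 0 and 0 counts in WT, 0, 2 and 0 in Kdm6bΔ/+, 1, 3 and 7 in Asxl1Y588XTg, and 4, 0 and 6 in Asxl1Y588XTg Kdm6bΔ/+. These 2 members were all those below the filter whose 3 Asxl1Y588XTg counts exceeded the 3 WT counts and reached 5 in 1 library, a rule met by 2.43% of 16879 genes below the filter. The corresponding fall in the double mutant was met by 0 members and by 1.19% of those genes. A rise there was met by 319 of the 16879 genes and 1 member, *Sox15*, with 4, 4 and 6 counts against 2, 0 and 2. Lower counts in Asxl1Y588XTg than in WT by this rule were met by 0 members and 122 genes.

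Without the filter on low counts, edgeR called *Nkx2-3* (adjusted p = 0.000424), *Sox18* (0.034) and *Tbx1* (6.3e-05) higher in Asxl1Y588XTg than in WT, where 1.96% of 30187 genes were called higher. In Asxl1Y588XTg Kdm6bΔ/+ against Asxl1Y588XTg the same setting called *Nkx2-3* (adjusted p = 1.91e-10) and *Tbx1* (3.38e-05) lower, where 2.15% of 30955 genes were called lower. The p-values of a gene with a few reads depend here on the spread that edgeR estimates over many genes at or near 0.

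**Figure D4:**
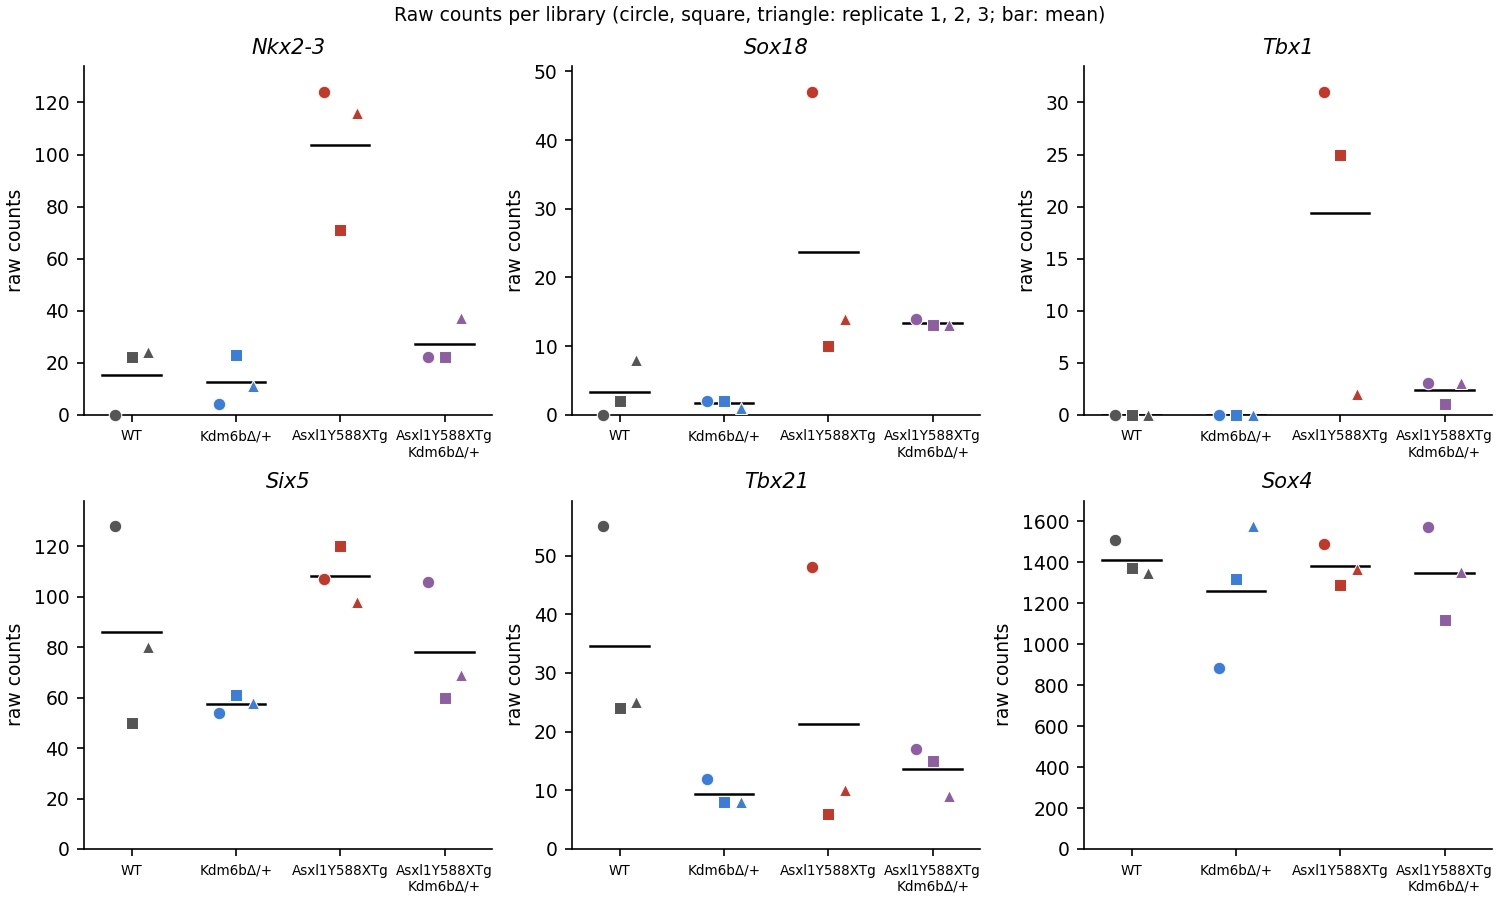
Raw counts of *Nkx2-3*, *Sox18*, *Tbx1*, *Six5*, *Tbx21* and *Sox4* in each library by genotype, where symbols mark replicates, bars mark means and each gene has its own vertical axis from 0. *Nkx2-3* is at 71 to 124 counts in Asxl1Y588XTg and at 37 or fewer elsewhere, while *Sox4* shows no such order.

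The sequence before the start of transcription is shown for *Nkx2-3* and *Tbx1*, which were highest in Asxl1Y588XTg, and for *Hoxd1*, which had no read in any library. Each is the stretch of 250 bases before the start, read on the gene's strand from 5′ to 3′, from RefSeq on GRCm38.p6 (mm10), with the CpG sites that DNA methylation and CpG island proteins act on in capitals. *Nkx2-3* (chr19:43612075-43612324, plus strand) has 14 CpG sites, *Tbx1* (chr16:18590672-18590921, minus strand) 10, and *Hoxd1* (chr2:74762730-74762979, plus strand) 24.
Nkx2-3: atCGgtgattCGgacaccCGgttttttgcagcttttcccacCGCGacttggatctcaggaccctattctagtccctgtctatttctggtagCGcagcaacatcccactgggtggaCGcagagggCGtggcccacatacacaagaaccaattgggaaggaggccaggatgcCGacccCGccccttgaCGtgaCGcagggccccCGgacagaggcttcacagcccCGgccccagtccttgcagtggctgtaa
Tbx1: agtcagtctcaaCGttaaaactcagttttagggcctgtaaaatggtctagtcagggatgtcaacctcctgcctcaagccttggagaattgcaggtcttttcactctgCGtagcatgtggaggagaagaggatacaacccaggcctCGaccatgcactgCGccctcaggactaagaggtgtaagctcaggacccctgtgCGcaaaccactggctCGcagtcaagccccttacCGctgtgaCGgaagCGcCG
Hoxd1: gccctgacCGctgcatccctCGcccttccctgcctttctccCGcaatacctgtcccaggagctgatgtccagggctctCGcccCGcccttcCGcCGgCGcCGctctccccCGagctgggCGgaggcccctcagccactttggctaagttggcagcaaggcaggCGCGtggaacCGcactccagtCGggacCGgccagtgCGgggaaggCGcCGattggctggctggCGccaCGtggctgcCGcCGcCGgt
The silent *Hoxd1* stretch had the most CpG sites of the 3. Neither AGATAA, a site form of GATA factors, nor TGACAG, a site form of MEIS factors, occurred on either strand in the windows of 300 bases of *Nkx2-3* and *Tbx1*; 12.7% and 21.6% of 26958 other genes had them. These letters say nothing on binding. A promoter window was at hand for 67 of the 101 members (66.3%), below the 80% needed, so a comparison of promoter composition over the members is void.

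The remaining tested members did not pass the test in either comparison. Divided by exon length, *Sox4* was highest in WT at 17.1 CPM per kilobase, followed by *Sox12* (4.56), *Sox13* (3.11) and *Six5* (1.62), and the other 9 lay between 0.096 and 0.91. *Sox4* had 1510, 1370 and 1349 raw counts in WT, 884, 1321 and 1576 in Kdm6bΔ/+, 1489, 1291 and 1368 in Asxl1Y588XTg, and 1575, 1117 and 1355 in Asxl1Y588XTg Kdm6bΔ/+. The genotypes overlapped, and with a log2 fold change of −0.05 between Asxl1Y588XTg and WT (95% interval −0.24 to 0.14) its difference was within the spread between mice. The gene *Gm26735* overlaps *Sox4* on the opposite strand, so its counts are uncertain to that extent. *Sox12*, the close relative of *Sox4*, *Sox13*, and its relative *Sox6*, a factor of red cell and cartilage maturation, had log2 fold changes of 0.24, 0.15 and 0.19 in the same comparison.

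*Six5*, a homeobox gene next to the muscular dystrophy kinase gene, had 128, 50 and 80 raw counts in WT and 54, 61 and 58 in Kdm6bΔ/+. It had 107, 120 and 98 in Asxl1Y588XTg and 106, 60 and 69 in Asxl1Y588XTg Kdm6bΔ/+. Scaled for depth, the double mutant lay below Asxl1Y588XTg in every library, with a log2 fold change of −0.63 (95% interval −1.06 to −0.20, adjusted p = 0.147 from edgeR's QL test, Benjamini-Hochberg adjusted), which did not pass. *Pax8*, a thyroid and kidney factor, had 46 to 83 counts in WT and 54 to 81 in Asxl1Y588XTg (log2 fold change 0.05, 95% interval −0.69 to 0.79). *Lhx1*, a kidney and head organizer factor, *Sox5*, *Sox8*, *Tbx6*, a factor of paraxial mesoderm, and *Tbx21* had log2 fold changes between −0.72 and 0.48 with intervals that crossed 0. Each of these intervals still allowed a change above 1.5-fold. *Tbx21* rested on Asxl1Y588XTg replicate 1, with 48 counts against 6 and 10: its log2 fold change was −0.68, and −2.08 without that library (adjusted p = 0.296 from edgeR's QL test).

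**Figure D5:**
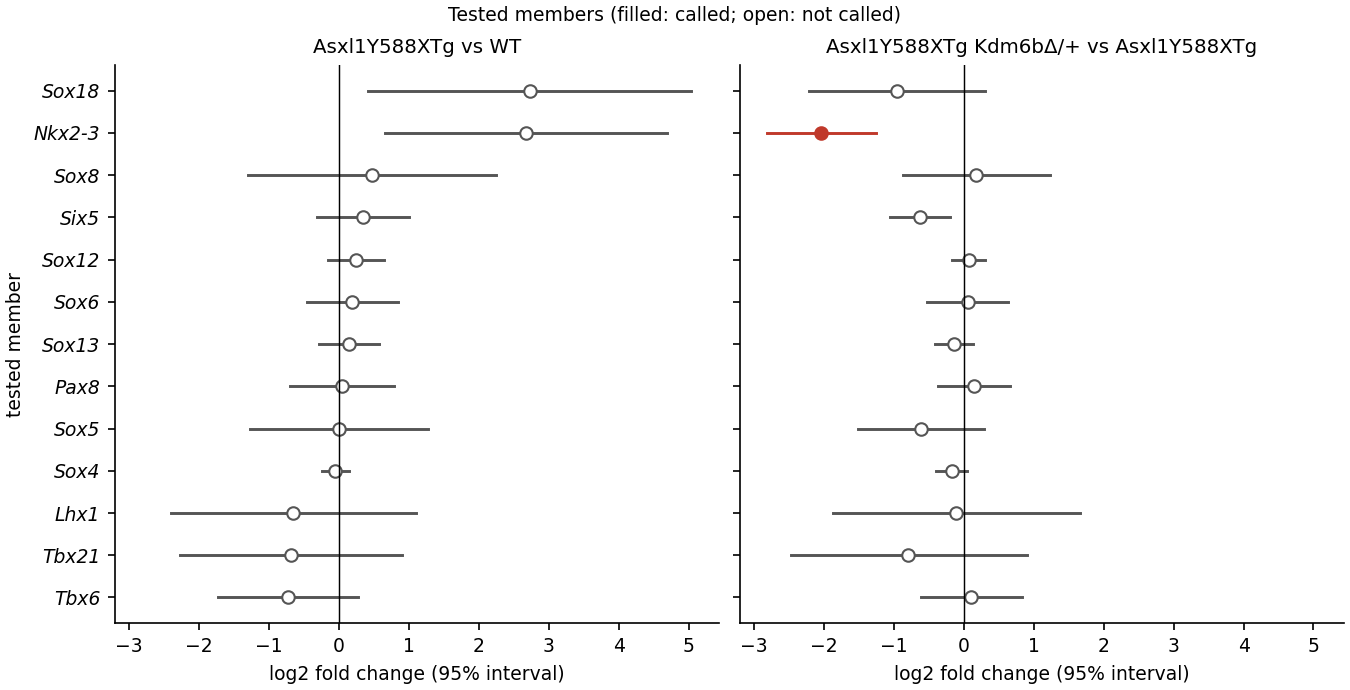
Log2 fold changes with 95% intervals of the 13 tested members in Asxl1Y588XTg against WT (left) and in Asxl1Y588XTg Kdm6bΔ/+ against Asxl1Y588XTg (right), with filled points for called genes. *Nkx2-3* in the right panel is the called gene, and the panels share the Asxl1Y588XTg libraries.

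The deletion alone and the double mutant against WT gave no calls among the members. In Kdm6bΔ/+ against WT, 0 members rose and 0 fell, where 0.0758% of all genes were called higher and 0.019% lower, and 2 members had an unadjusted p under 0.05, both lower, beside 3.49% of all genes in either direction. These were *Tbx21*, the T-bet factor of NK and T helper cells, and *Sox8*. *Tbx21* had 55, 24 and 25 raw counts in WT, 12, 8 and 8 in Kdm6bΔ/+, 48, 6 and 10 in Asxl1Y588XTg and 17, 15 and 9 in Asxl1Y588XTg Kdm6bΔ/+. The WT libraries were above all libraries with the deletion on both backgrounds, with log2 fold changes of −1.73 in Kdm6bΔ/+ (adjusted p = 1 from edgeR's QL test) and −1.47 in Asxl1Y588XTg Kdm6bΔ/+ (adjusted p = 0.526 from the same edgeR test). Markers of T and NK cells did not move with *Tbx21* as a set. The 9 markers summed to 213 to 226 CPM in WT, 205 to 271 in Kdm6bΔ/+, 194 to 237 in Asxl1Y588XTg and 180 to 219 in Asxl1Y588XTg Kdm6bΔ/+, with 0 called, but *Nkg7* took 92.4% of their counts. The other 8 summed to 10.7 to 28.2, 11.1 to 13.2, 12.2 to 43.1 and 11.8 to 14.1 CPM. *Ncr1*, a receptor that defines NK cells, had 96, 203 and 132 raw counts in WT, 54, 78 and 45 in Kdm6bΔ/+, 303, 37 and 53 in Asxl1Y588XTg and 97, 53 and 52 in Asxl1Y588XTg Kdm6bΔ/+. Like *Tbx21*, it was highest within Asxl1Y588XTg in replicate 1. Within WT, however, *Ncr1* was lowest in replicate 1, where *Tbx21* was highest. *Cd4*, another of the 9 markers, was not lower with the deletion. It had 21, 36 and 31 raw counts in WT, 23, 49 and 58 in Kdm6bΔ/+ and 48, 49 and 80 in Asxl1Y588XTg Kdm6bΔ/+. The part of these cells in the *Tbx21* values was not tested.

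*Sox8*, a relative of the testis and cartilage factor *Sox9*, had 13, 4 and 2 raw counts in WT, 0, 1 and 1 in Kdm6bΔ/+, 6, 11 and 9 in Asxl1Y588XTg and 10, 8 and 14 in Asxl1Y588XTg Kdm6bΔ/+. It was the member with the smallest p of the interaction (0.0211, adjusted p = 0.646 from edgeR's QL test), and an opposite-strand gene overlaps it. *Tbx21* and *Sox8* were the 2 of 13 members with all Kdm6bΔ/+ libraries below all WT libraries, a pattern of 4.8% of all genes. In Asxl1Y588XTg Kdm6bΔ/+ against WT, 0 members rose and 0 fell, where 0.145% and 0.0695% of all genes were called, and 1 member had an unadjusted p under 0.05, beside 6.79% of all genes in either direction. *Sox18* lay above WT in all 3 libraries, a pattern of 6.68% of all genes, and *Tbx21* and *Tbx6* lay below, a pattern of 6.87%. For the interaction 0 members were called in either direction, where 0% and 0.0126% of all genes were.

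The most counted members below the filter showed no common order. *Pax9*, a tooth and thymus factor, had 0, 7 and 11 raw counts in WT and 2, 2 and 5 in Asxl1Y588XTg. *Nkx6-2*, a factor of the neural tube, had 0, 8 and 7 against 2, 5 and 5. In each the groups overlapped, and the counts of *Pax9* and *Nkx6-2* are uncertain because opposite-strand genes overlap them. The same holds for *Sox15*, *Dlx1*, *Pax6* and *Tbx3*. Of the 101 members, 46 overlap another annotated gene. *Sox15* had 12, 0 and 3 in WT and 2, 0 and 2 in Asxl1Y588XTg, *Dlx1*, a forebrain factor, 0, 6 and 7 against 4, 1 and 2, and *Lhx4*, a pituitary factor, 4, 4 and 1 against 7, 3 and 3. *Tbx2* had 0, 4 and 2 against 8, 2 and 5, *Pax6*, the eye factor, 9, 0 and 1 against 2, 3 and 0, and *Tbx3* 0, 1 and 2 against 4, 1 and 3. In WT replicate 1, 5 of the 88 members below the filter had a count, *Sox15* and *Pax6* with the most. *Irx5*, *Irx3* and *Gata6* had 11 counts each over 12 libraries.

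The 25 members with no count were *Hoxc11* to *Hoxc13*, 5 *Hoxd* genes, *Gata4*, *Gata5*, 2 *Irx* genes, 6 *Nkx* genes with the heart factor *Nkx2-5* and the thyroid and lung factor *Nkx2-1* among them, 2 *Tbx* genes (*Tbx5* and *Tbx20*, both of the heart), 2 *Sox* genes, *Lhx5*, *Pax4* and *Six6*. Over all 12 libraries together, no count allows up to 0.0142 CPM. Noncoding genes that neighbour or oppose members also had few reads. Of 23 such genes, 13 had no count and 0 passed the filter, where 40.9% and 28.6% of all genes did. Their highest count in 1 library was 9, on *Sox2ot* in WT replicate 1.

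Of 34 genes of the Polycomb pathway listed, 33 were tested (*Asxl3* lay below the filter), and 0 were called in Asxl1Y588XTg against WT, in Asxl1Y588XTg Kdm6bΔ/+ against Asxl1Y588XTg, in Kdm6bΔ/+ against WT, or in the interaction. Of all genes tested, 1.58% were called higher and 0.0316% lower in the first of these comparisons, and 0.145% and 1.59% in the second. For the third the shares were 0.0758% and 0.019%, and for the interaction 0% and 0.0126%. At an unadjusted p under 0.05, 3 listed genes were higher and 2 lower in Asxl1Y588XTg than in WT. The share of all genes at that p was 9.35% in either direction. The PRC2 subunits *Ezh2*, *Suz12* and *Eed* had log2 fold changes of −0.18, −0.06 and −0.16 there, and *Pcgf2*, a PRC1 subunit, had the largest of those 5, at 1.16 (adjusted p = 0.0866 from edgeR's QL test). In Asxl1Y588XTg Kdm6bΔ/+ against WT the Y-linked *Uty* was called higher and the X-linked *Kdm6a* lower, with log2 fold changes of 9.08 and −0.72, in libraries that also differed in Y-linked transcripts.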

How the data were processed

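RNA-seq libraries of 12 mice, 3 per genotype, were grouped by their labels. The deposited values are raw counts of reads per gene, made by the authors with FastQC, Trimmomatic, STAR and HTSeq on mm10. Annotation release and strand setting are not given in the sources used here, nor are batches, and the labels and the study's methods name different library kits and sequencers. The members, gene lists and tests were chosen with earlier results of these data known. Replicates of a genotype are separate mice.

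Counts were tested with edgeR 4.0.16 (limma 3.58.1, R 4.3.3), with TMM scaling, filterByExpr and the robust quasi-likelihood test on the 6 libraries of each pair of genotypes, or all 12 for the interaction. P-values were adjusted by Benjamini-Hochberg over 15825 genes, and a call needed an adjusted p under 0.05 and a fold above 1.5. CPM values use TMM-scaled totals unless raw totals are named. Genes named were *Kdm6b* and *Asxl1*, called members, the highest of each family, the other tested members, the 10 members below the filter with the most counts, and those below it whose Asxl1Y588XTg and WT counts did not overlap with 5 or more in 1 library. Of these, 1 is not reported here. *Hoxb* genes and *Sox2ot* were named after their values were seen. Alternatives were DESeq2 1.42.0, RLE scaling, no filter, a mean of 50 or more counts, a replicate block, all genotypes in 1 fit, a term for Y-linked transcripts, each library left out and, added after the data were seen, both thin libraries left out. The edgeR steps were tested on simulated data. Intervals cover the spread between these mice only. Gene positions and overlaps are from GENCODE vM21, and promoters from RefSeq.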

Additional observations from a re-analysis of the deposited data

How the results depend on the processing

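In Asxl1Y588XTg against WT the number of members called higher was 0, and 3 without the filter, 1 without both thin libraries, and 0 to 1 with each library left out (1 without WT replicate 1). In Asxl1Y588XTg Kdm6bΔ/+ against Asxl1Y588XTg the number called lower was 1, and 2 without the filter, 0 at a mean of 50 or more counts, 0 with all genotypes in 1 fit, 0 with the Y-linked term, and 0 to 1 with each library left out. With all genotypes in 1 fit and both thin libraries left out it was 1. With the replicate block it was 0 (*Nkx2-3* −2.06, adjusted p = 0.0554 from edgeR). Correlations between deviations of same-numbered libraries were −0.15 to 0.15, beside −0.24 to 0.22 for libraries of other numbers. Whether the numbers pair the mice cannot be told from this, since batches are not given. Both thin libraries have number 1. Without the filter the median log2 fold change of members, most of them with few reads, was 0.46 and −0.43 in these comparisons. The ratio of Asxl1Y588XTg to WT sums was 2.02 for *Hoxc* (1.35 to 7.54 with each library left out), 4.49 for *Nkx* (3.03 to 6.3, and 0.98 without *Nkx2-3*), 1.17 for *Sox* without *Sox4*, 1.95 for *Lhx* without *Lhx1* and 2.54 for the *Six5* family without *Six5*. The detection difference was 6.83 to 19.3 members with each library left out. Signs turned only for values near 0 or of few reads. With the Y-linked term *Pax8* was −0.05 in Asxl1Y588XTg against WT, and in the double mutant against Asxl1Y588XTg *Sox5* was 0, *Pax8* −0.04, *Sox12* −0.02, *Sox8* −0.02 and *Tbx6* −0.04. *Pax8* was −0.07 without the thin libraries. *Nkx2-3* in Kdm6bΔ/+ against WT was 0.27 with the Y-linked term, 0.07 with the replicate block and −0.97 to 0.18 with each library left out. With each library left out, Asxl1Y588XTg against WT gave −0.12 to 0.38 for *Pax8*, −0.02 to 0.25 for *Sox13*, −0.1 to 0 for *Sox4*, −0.36 to 0.33 for *Sox5* and −0.04 to 0.42 for *Sox6*. The double mutant against Asxl1Y588XTg gave −1.07 to 0.94 for *Lhx1*, −1.32 to 0.02 for *Sox18*, −0.17 to 0.22 for *Sox6*, −0.17 to 0.38 for *Sox8* and −1.22 to 0.62 for *Tbx21*. Where no construction shows it, the cause was not tested. For members with a few reads, calls depended on the filter.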
